A study of Mus musculus with 6 samples.

Results

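The AP-1 and immediate early genes described here were 10 named genes, Jun, Junb, Jund, Fos, Fosb, Fosl1, Fosl2, Egr1, Atf3 and Ier2, and every array probe annotated with one of those symbols was taken. Of the 19054 named genes on the array, 9 of these 10 had a probe, with 12 probes between them, and no probe carried the symbol Fosl1. A probe was tested where its signal exceeded the array background, at a detection p under 0.01, on at least 3 of the 6 arrays. Jun, Junb, Jund, Fos, Fosl2 and Egr1 each had 1 tested probe, so 6 members stood among 9921 tested genes, while Fosb, Atf3 and Ier2 were too dim on every array to be tested.

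Expression was measured in whole mouse kidney of E18.5 embryos, shortly before birth, in 3 litters. From each litter, 1 pool of kidneys came from 2 FoxD1GC;Dicerfl/fl embryos (the mutant) and 1 pool from 2 Cre-negative littermates (the control). In the mutant, an eGFP-Cre fusion protein made from the endogenous Foxd1 locus acts in the renal stroma and its descendants on floxed Dicer alleles, where the loss of Dicer stops the maturation of microRNAs. Whether the controls carried floxed Dicer alleles was not given in the sources used here, and they lack the Cre knock-in, so the knock-in and the loss of Dicer cannot be told apart. The Dicer fl/fl line was kept on C57BL/6J and the FoxD1GC line on another strain.

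AP-1 is a transcription factor made of pairs of basic leucine zipper (bZIP) proteins. The Jun proteins can pair with each other or with Fos proteins, and Fos proteins need a Jun partner to bind DNA. Immediate early genes are transcribed within minutes of a stimulus such as a growth factor, cell stress or tissue injury, without new protein synthesis, and their messengers are short-lived. In the kidney, Jun, Fos, Egr1 and Atf3 are known for their induction after ischaemic and toxic injury of the tubules.

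The promoters of the called members Jun and Junb are shown because the Jun promoter is a classic example of a gene controlled by its own product, through a proximal and a distal variant of the AP-1 site. The 250 bases before each RefSeq transcription start are printed 5′ to 3′ on the gene's strand (mouse GRCm38.p6, minus strand for both, Jun at chr4:95052223-95052472 and Junb at chr8:84978749-84978998). Capitals mark matches to TTACCTCA and TGACATCA, the variant sites of the Jun promoter.
Jun: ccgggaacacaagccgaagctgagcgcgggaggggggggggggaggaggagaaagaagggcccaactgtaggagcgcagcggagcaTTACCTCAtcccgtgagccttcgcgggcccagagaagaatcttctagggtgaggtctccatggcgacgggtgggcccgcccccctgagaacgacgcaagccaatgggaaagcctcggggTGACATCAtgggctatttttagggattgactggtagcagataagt
Junb: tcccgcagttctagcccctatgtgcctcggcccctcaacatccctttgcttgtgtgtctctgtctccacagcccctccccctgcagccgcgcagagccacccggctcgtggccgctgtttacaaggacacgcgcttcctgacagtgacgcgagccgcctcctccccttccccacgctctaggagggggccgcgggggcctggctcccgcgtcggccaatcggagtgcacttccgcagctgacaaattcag
In Jun, TTACCTCA ran from -164 to -157 and TGACATCA from -45 to -38, counted from the start. The windows searched ran from 250 bases before to 50 bases after the start, on both strands. Of the members, 7 had one in the table used, and Fosl1, Egr1 and Ier2 had none. Of all 32851 promoters, 0.889% held TTACCTCA and 3.62% held TGACATCA, and Jun was the only one of the 7 members with either. The pattern TGANTCA, in which N is any base and which takes in the AP-1 consensus, was in 7.81% of all promoters. TGACGTCA was in 1.79% and the CArG box, the element bound by serum response factor, in 1.63%. Each of these patterns was in 0 of the 7 members. A match is a string of letters in this window and was not measured as a bound site. Sites outside the window, such as farther upstream, were not searched for.

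The arrays were similar in overall signal, with median intensities from 100.3 to 107.6 and 35.7% to 37.7% of probes detected. Across all genes, 552 of 9921 passed the test, 239 higher and 313 lower in the mutant. Of the 2 detected Dicer1 probes, the dimmer was lower in the mutant (log2 change -0.63 ± 0.13 SE, adjusted p = 0.045, lost whichever litter was left out) and the brighter gave -0.28 ± 0.11 (adjusted p = 0.24), but neither could be placed relative to the deleted exon. For Eif2s3y, which lies on the Y chromosome, the controls of litters 1, 2 and 3 gave 8.50, 8.43 and 4.38 in normalized log2 intensity, and the mutants 8.21, 4.28 and 4.28. The pools of litter 2 thus differed in Y-linked signal, whereas those of litters 1 and 3 matched, and calls that were lost without litter 2 are named as such beside each result. Kidney markers were present, and all 5 proximal tubule markers listed (Lrp2, Cubn, Slc34a1, Slc22a6 and Miox) fell. Without litter 2, Lrp2 (adjusted p = 0.038) and Miox (0.028) passed, and Cubn (0.087), Slc34a1 (0.12) and Slc22a6 (0.063) did not.

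Jun and Junb rose in the mutant, Jun 1.82-fold and Junb 2.16-fold, and were the only members to pass the test. The size of these folds and their order depended on the processing, as given below. This was 2 of 6 tested members, where 5.56% of all tested genes passed in either direction and 2.41% passed as higher. Without litter 2, Jun (adjusted p = 0.16 by limma) and Junb (0.098) did not pass. Jund was higher in the mutant of every litter without passing. Egr1, Fos and Fosl2 did not pass, and Egr1 had the lowest change of the 6. The median log2 change was 0.41 over the 6 members, against 0.01 over all tested genes. Of the 6 members, 5 had a positive value, against 52.1% of tested genes. Fos is counted in both, although it was detected on 1 control and 3 mutant arrays and gave -0.01 without litter 2. The members were also chosen with earlier results of these data known, so these comparisons describe the values and are not independent support.

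Jun encodes c-Jun, the partner that most AP-1 pairs contain and the target of the Jun N-terminal kinases. Its probe (ILMN_2646625) read 7.35, 7.16 and 7.57 in the controls of litters 1, 2 and 3 and 8.31, 8.22 and 8.15 in the mutants, in normalized log2 intensity. All 3 mutant pools lay above all 3 controls, and the mutants lay closer together than the controls. The group means were 7.36 ± 0.21 and 8.22 ± 0.08 (SD, n = 3 pools each). The log2 change was 0.87 ± 0.13 (SE), with a 95% interval of 0.56 to 1.17 and an adjusted p of 0.015 by limma with the litter in the model. The call was lost without litter 2 (adjusted p = 0.16). As deposited, before background correction, the intensities were 245.4, 218.3 and 286.5 in the controls and 386.8, 424.7 and 337 in the mutants, also without overlap. Since whole kidneys were measured, more cells with Jun messenger and more messenger per cell cannot be told apart, here and for the genes that follow.

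Junb encodes JunB, a weaker activator than c-Jun that can hold back c-Jun at some targets. Its brighter probe (ILMN_1220034) read 5.31, 5.74 and 5.73 in the controls and 6.73, 6.79 and 6.58 in the mutants. The lowest mutant exceeded the highest control by more than the whole range within either group. The log2 change was 1.11 ± 0.14 (SE), with a 95% interval of 0.78 to 1.43 and an adjusted p of 0.0076 by limma. This call, too, was lost without litter 2 (adjusted p = 0.098). The deposited intensities were 123.5, 135.4 and 138.9 against 185.3, 210.2 and 166.2, with every mutant above every control. The array medians ran from 100.3 to 107.6, so the Junb controls lay not far above them. A further Junb probe (ILMN_1254833), annotated to another transcript record, was detected on 0 arrays and gave 0.11 ± 0.11 when all probes were fitted without the filter, so it was not above background in either group.

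Jund encodes JunD, the Jun protein that resting cells hold in the steadiest amount and that behaves least like an immediate early product. Its probe (ILMN_2682788) read 5.90, 5.87 and 6.03 in the controls and 6.53, 6.44 and 6.32 in the mutants. The groups did not overlap and the mutant was higher in each litter, yet the gene did not pass the test (log2 change 0.50 ± 0.12, 95% interval 0.22 to 0.77, adjusted p = 0.067 by limma). It passed without the litter in the model (adjusted p = 0.039) and without litter 3 (adjusted p = 0.043), the litter with its smallest difference.

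**Figure D1:**
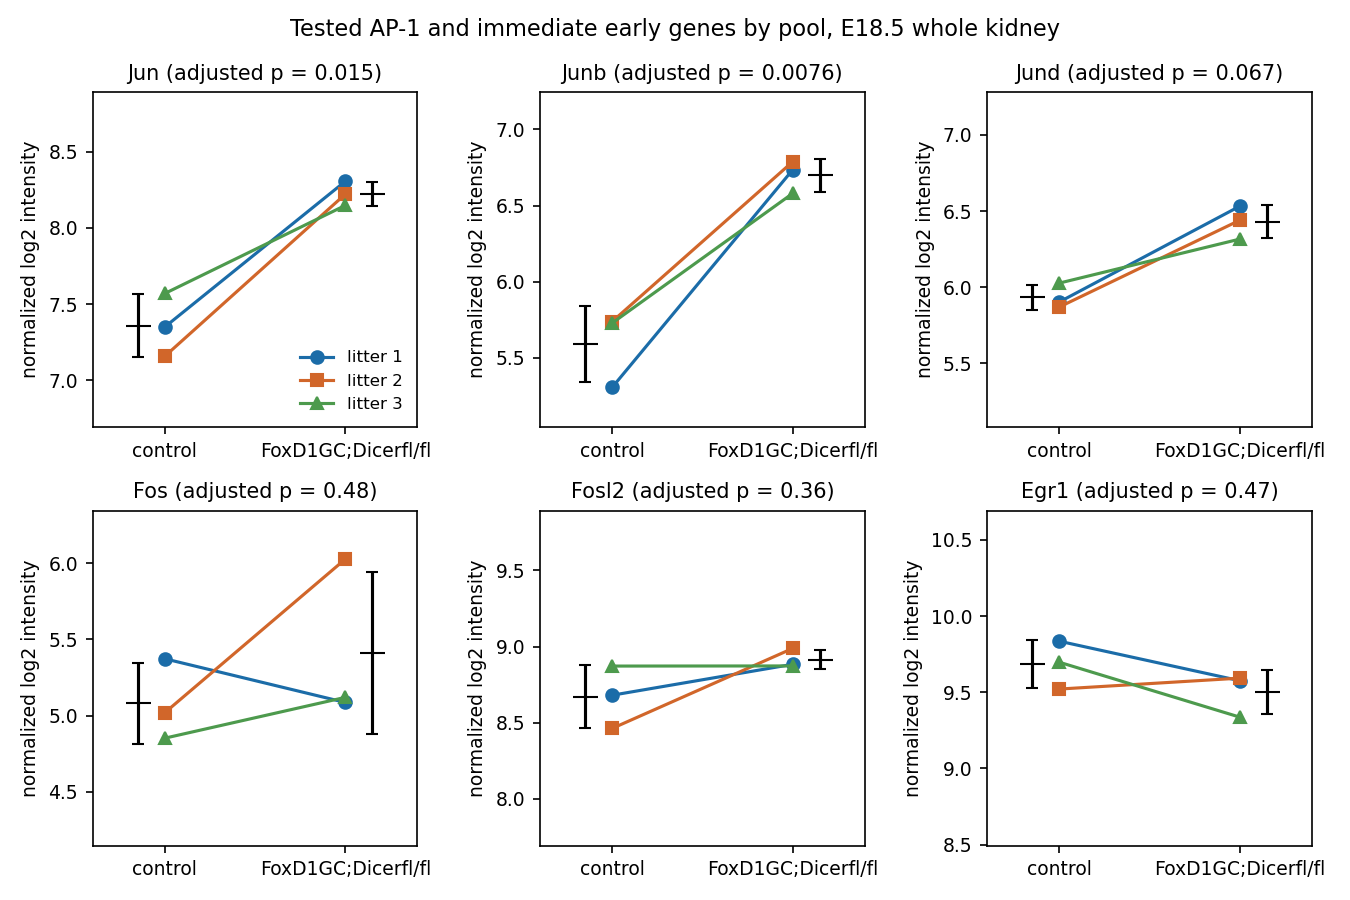
Normalized log2 intensity of the 6 tested members in each pool, with control and mutant of a litter joined by a line and black bars giving the mean and SD of 3 pools. Every panel spans the same log2 range. The Jun, Junb and Jund lines climb in every litter, Fos climbs steeply in litter 2 and descends in litter 1, and Fosl2 and Egr1 differ in slope from litter to litter.

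Fos encodes c-Fos, the partner of c-Jun best known for its brief burst after stimulation. Its probe (ILMN_2750515) read 5.37, 5.02 and 4.85 in the controls and 5.09, 6.03 and 5.12 in the mutants. One mutant pool, that of litter 2, stood above the other 5 readings, which overlapped, and the litter differences were -0.29, 1.01 and 0.27. The probe was detected on 1 control and 3 mutant arrays, so that it entered the test mainly through the mutants. The log2 change was 0.33 ± 0.23 (95% interval -0.21 to 0.87, adjusted p = 0.48 by limma), and without litter 2 it was -0.01.

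Fosl2 encodes Fra-2, a Fos relative that lacks the strong activation domain of c-Fos. Its bright probe (ILMN_1252481) read 8.68, 8.46 and 8.87 in the controls and 8.88, 8.99 and 8.87 in the mutants. The highest control and the lowest mutant, both from litter 3, were equal at this precision, and the groups were apart only beyond it. The log2 change was 0.24 ± 0.13 (95% interval -0.07 to 0.55, adjusted p = 0.36). The other Fosl2 probes (ILMN_2718801 and ILMN_2768924), annotated to the same transcript record, were detected on 0 arrays and gave 0.02 ± 0.08 and -0.02 ± 0.08 without the filter.

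Fosb encodes FosB, a further Fos protein with an activation domain. Its probe (ILMN_2778279) was not detected on any array, with a lowest detection p of 0.0556. It read 4.72, 4.53 and 4.49 in the controls and 4.53, 4.51 and 4.34 in the mutants, which overlapped, and the change without the filter was -0.12 ± 0.07 (adjusted p = 0.63). No fold is given for a probe that was not above background in either group.

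Egr1 encodes a zinc finger factor outside the AP-1 family that is switched on by the same stimuli as Fos. Its probe (ILMN_2662926) read 9.84, 9.52 and 9.70 in the controls and 9.58, 9.59 and 9.34 in the mutants. The groups overlapped and the litters differed in sign, at -0.26, 0.07 and -0.36. The log2 change was -0.18 ± 0.12 with a 95% interval of -0.48 to 0.11 (adjusted p = 0.47 by limma), whose upper bound lies below the lower bounds of the Jun and Junb intervals. Whether Egr1 and Jun differed in their change was not tested.

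Atf3, a bZIP factor of the ATF family that pairs with Jun proteins and is induced by many forms of cell stress, was dim. Its probe (ILMN_2619408) read 4.54, 4.47 and 4.41 in the controls and 4.93, 4.89 and 4.65 in the mutants, so the groups did not overlap. Detection p was 0.123, 0.161 and 0.240 in the controls and 0.0182, 0.0224 and 0.0662 in the mutants, and no array met the bound of 0.01. Without the filter the log2 change was 0.35 ± 0.07 (adjusted p = 0.15), which did not pass.

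Ier2, an immediate early gene for a nuclear protein that is not a bZIP factor, was also not detected on any array. Its probe (ILMN_2642705) read 4.31, 4.49 and 4.56 in the controls and 4.35, 4.34 and 4.30 in the mutants, which overlapped (change without the filter -0.13 ± 0.08, adjusted p = 0.69).

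**Figure D2:**
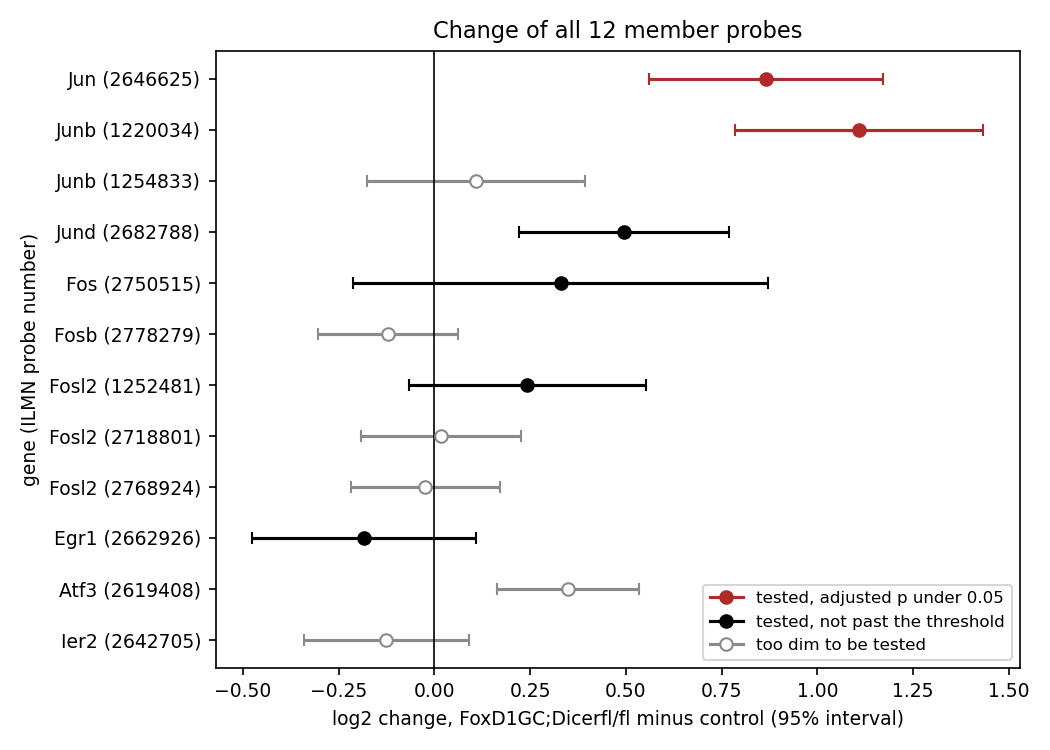
Log2 change (mutant minus control, 3 litters) of all 12 member probes with 95% intervals. Red marks the tested probes past the threshold, black the other tested probes and open grey the probes too dim to be tested, which come from a fit without the filter. Jun at 0.87 and Junb at 1.11 stand to the right of every other probe.

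The median difference over the 6 tested members was 0.42 in litter 1, 0.79 in litter 2 and 0.28 in litter 3, with 4, 6 and 5 of 6 members higher in the mutant. Jun differed by 0.96, 1.06 and 0.58, Junb by 1.43, 1.05 and 0.85 and Jund by 0.63, 0.57 and 0.29, so litter 3 held the smallest difference for each of these genes. Jun, Junb, Jund and Fosl2 were higher in the mutant of all 3 litters, as were 23.2% of all tested genes. The same 4 members were higher without overlap of the groups, against 13.8% of tested genes. That count holds for the normalized values. In the deposited intensities, the litter 3 pair read 151.5 in the control and 151.8 in the mutant for Jund, and 586.4 and 499.9 for Fosl2, whose groups then overlapped.

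The calls for Jun and Junb depended on which litters were included. Without litter 2, whose pools differed in Y-linked signal, Jun was 0.77 ± 0.16 (adjusted p = 0.16) and Junb 1.14 ± 0.19 (adjusted p = 0.098). The changes remained of similar size but neither passed, and the number of all genes called went from 552 to 44. The fit without litter 2 was also less precise. It had 1 residual degree of freedom rather than 2, and a median SE over tested probes of 0.149 rather than 0.116. Leaving out litter 1 or litter 3 also left 1 residual degree of freedom, and 387 and 538 genes were then called. The SE of Jun was 0.165 without litter 1 and 0.162 without litter 2. Why more calls were lost without litter 2 was not tested. Without litter 1, Junb passed and Jun had an adjusted p of 0.0501. Without litter 3, both passed. On the log2 values as processed by the authors, whose array medians were all close to 6.83, Jun was 0.55 ± 0.07 (adjusted p = 0.0095) and Junb 0.38 ± 0.06 (adjusted p = 0.016). Both passed, with the Junb change at 1.30-fold rather than 2.16-fold and the Jun change at 1.47-fold rather than 1.82-fold. With a larger constant added to the intensities before the log (an offset of 50 rather than 16), Jun and Junb were each 1.68-fold. Junb thus exceeded Jun under the reported processing but not under these.

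**Figure D3:**
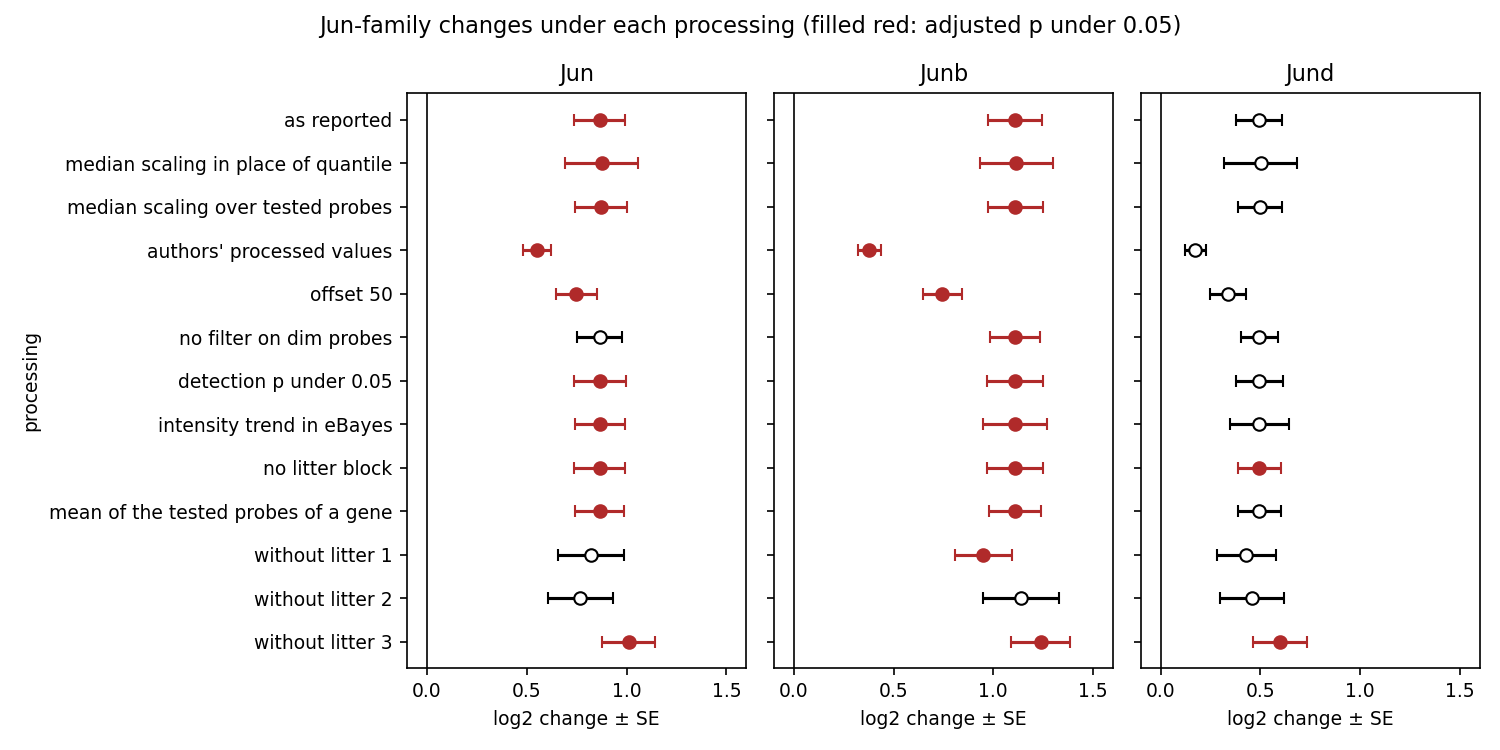
Log2 change ± SE of Jun, Junb and Jund under the reported processing and 12 alternatives, one per line, with filled red points where the adjusted p was under 0.05. All values are positive, Jun ranges from 0.55 to 1.01, Junb from 0.38 to 1.24 and Jund from 0.17 to 0.60. Settings that alter only the filter, intensity trend, litter block or probe averaging keep the reported log2 change.

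Of 19 other immediate early transcription factors listed, 10 were tested, 1 rose and 0 fell, with a median log2 change of 0.11. The gene that rose was Klf2, a zinc finger factor known in endothelium for its response to blood flow, which read 8.34, 8.21 and 8.33 in the controls and 8.76, 8.80 and 8.81 in the mutants. These groups were well apart (log2 change 0.49 ± 0.10, adjusted p = 0.049), but the call was lost without each litter in turn, at adjusted p values of 0.11, 0.31 and 0.083. Among those that did not pass, Myc gave 0.09 ± 0.20, Klf6 0.12 ± 0.13, Nr4a2 -0.30 ± 0.31 and Cebpb -0.12 ± 0.10. Ier3, which stood in this list but is not a transcription factor, gave 0.19 ± 0.13. Of the 10 tested, 7 had a positive change. The Egr1 relatives Egr2, Egr3 and Egr4 and the nuclear receptors Nr4a1 and Nr4a3 were not tested.

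Of 26 immediate early genes for feedback inhibitors, secreted and signalling proteins, 21 were tested, 3 rose and 0 fell, with a median of 0.16. Gadd45b, which binds kinases of the stress pathways, read 6.19, 5.85 and 6.07 in the controls and 6.68, 6.55 and 6.78 in the mutants, with no overlap (log2 change 0.64 ± 0.11, adjusted p = 0.023). Rhob, a small GTPase gene, read 9.15, 9.22 and 8.99 against 9.68, 9.74 and 9.49 (0.52 ± 0.10, adjusted p = 0.038). Errfi1, an inhibitor of the EGF receptor, read 9.76, 9.93 and 10.13 against 10.57, 10.61 and 10.47 (0.61 ± 0.13, adjusted p = 0.045). In all 3 genes every mutant pool exceeded every control, and none passed without litter 2 (adjusted p from 0.20 to 0.29). Rhob also did not pass without litter 1 (0.12) or litter 3 (0.065), nor Errfi1 without litter 1 (0.15). The phosphatase gene Dusp1, usually induced together with Fos, gave 0.14 ± 0.11 (adjusted p = 0.50), and Zfp36, whose product destabilizes short-lived messengers, gave 0.14 ± 0.11 (adjusted p = 0.56). Also short of the threshold by limma were Dusp5 (0.52 ± 0.12, adjusted p = 0.072), Ccn1 (-0.46 ± 0.12, 0.090), Sgk1 (-0.33 ± 0.11, 0.16) and Ccn2 (-0.31 ± 0.12, 0.21). Of the 21 tested, 15 had a positive change.

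The bZIP partners of Jun and Fos outside the members had 11 of 19 tested, 0 rose and 1 fell, with a median of -0.03. Batf3, which pairs with Jun proteins and is known for its need in a class of dendritic cells, read 6.14, 5.87 and 6.21 in the controls and 5.55, 4.99 and 5.50 in the mutants. It fell by 0.73 ± 0.11 on the log2 scale (adjusted p = 0.016, and 0.16 without litter 2). The MAP kinases and serum response factors that act upstream had 20 of 32 tested and 0 that passed, with a median of 0.07. The 2 with the smallest p were Mapk11, a p38 kinase gene (-0.30 ± 0.11, adjusted p = 0.19), and Map2k1, the gene of the kinase MEK1 (0.27 ± 0.12, adjusted p = 0.28). Srf, which is also in the list of transcription factors, gave 0.15 ± 0.11 (adjusted p = 0.47).

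Among 25 genes with a known AP-1 site in their control region, 15 were tested, 3 rose and 0 fell, with a median of 0.05. S100a9, the calprotectin subunit made mainly by neutrophils and also in the neutrophil marker list, read 6.16, 6.45 and 6.18 in the controls and 7.86, 8.10 and 8.06 in the mutants (1.74 ± 0.11, adjusted p = 0.00096). Cd44, a hyaluronan receptor, read 5.68, 5.86 and 6.04 against 6.79, 7.38 and 6.85 (1.14 ± 0.15, adjusted p = 0.0093). Sprr1a, a cornified envelope precursor, read 6.03, 6.95 and 6.93 against 8.39, 8.34 and 7.69 (2.84-fold, adjusted p = 0.030). Each was higher in all mutant pools than in any control. Without litter 2, S100a9 passed (adjusted p = 0.030), while Cd44 (0.093) and Sprr1a (0.20) did not.

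**Figure D4:**
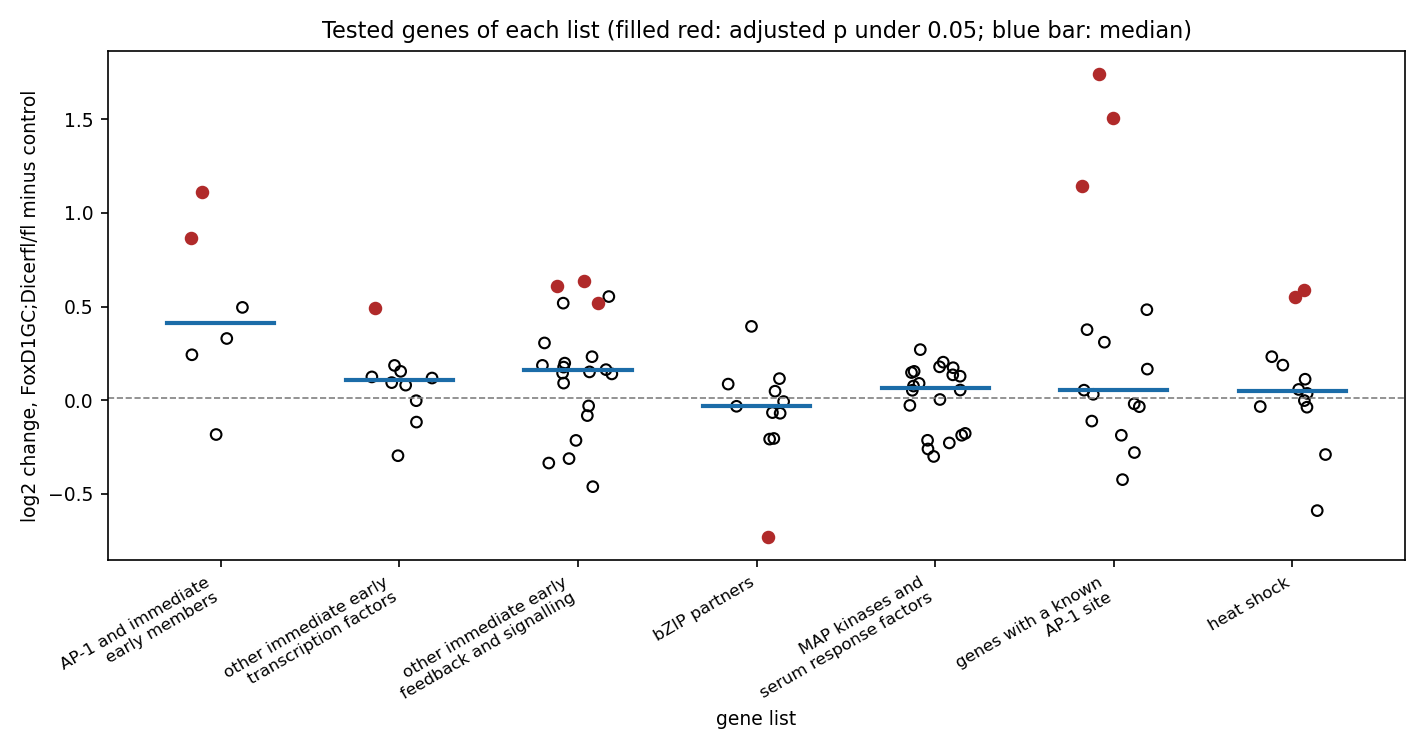
Log2 change (mutant minus control) of every tested gene of the members and of 6 related lists, with filled red points for an adjusted p under 0.05, blue bars for the list medians and a dashed line for the median of all tested genes at 0.01. The members have a median of 0.41, and the other lists have medians from -0.03 to 0.16. Members and lists were chosen with earlier results of these data known.

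Heat shock genes, which also respond to handling of tissue, had 12 of 15 tested, 2 rose and 0 fell, with a median of 0.05. The small heat shock proteins Hspb8 (0.59 ± 0.10, adjusted p = 0.024) and Hspb1 (0.55 ± 0.10, adjusted p = 0.034) passed, and the inducible Hspa1a gave -0.59 ± 0.14 (adjusted p = 0.070). Hspb8 and Hspb1 did not pass without litter 2 (adjusted p = 0.20 and 0.25) or without litter 1 (0.071 and 0.12). Their part in the Jun and Junb values was not tested.

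Tested macrophage and neutrophil markers were also higher in the mutant, while no tested erythroid marker passed. Of 9 macrophage markers, 7 were tested and 6 rose (Csf1r, Adgre1, C1qa, C1qb, C1qc and Cx3cr1), while Mrc1 did not pass (0.41 ± 0.10, adjusted p = 0.081 by limma). The summed normalized level of the 7 tested, on a linear scale, was 540 to 656 in the controls and 1221 to 1294 in the mutants. None of the 6 that rose passed without litter 2, where their adjusted p ran from 0.061 to 0.20, and Csf1r did not pass without litter 1 (0.093). Of 8 neutrophil markers, 4 were tested and 3 rose (S100a8, S100a9 and Retnlg), while Ltf did not pass (0.45 ± 0.12, adjusted p = 0.10 by limma). The sums of the 4 tested were 322 to 391 in the controls and 992 to 1192 in the mutants. The granule genes Mpo, Elane, Ngp and Camp were not tested. Without litter 2, S100a8 (adjusted p = 0.040) and S100a9 (0.030) passed and Retnlg (0.065) did not. The part of these cells in the Jun and Junb values was not tested. Of the erythroid list 3 of 6 genes were tested and of the endothelial list 5 of 6, and 0 passed in either, while 0 of 7 adrenal cortex markers reached the bound for testing. Among the 5 stromal markers, all tested, Pdgfra and Pdgfrb fell. Foxd1 (0.04 ± 0.22), Meis1 (-0.36 ± 0.25) and Tcf21 (-0.31 ± 0.11) did not pass. Pdgfra did not pass without any one of the litters (adjusted p = 0.088, 0.23 and 0.10 without litters 1, 2 and 3), and Pdgfrb did not pass without litter 2 (0.28) or litter 3 (0.067). Of the 4 nephron progenitor markers, all tested, Cited1 and Eya1 rose with all litters included. Neither passed whichever litter was left out (0.15, 0.22 and 0.064 for Cited1, and 0.068, 0.17 and 0.068 for Eya1). Six2 (0.56 ± 0.12, adjusted p = 0.056 by limma) and Meox1 (0.02 ± 0.13, adjusted p = 0.96) did not pass.

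The genes whose normalized log2 values followed Jun most closely over the 6 arrays were Gorasp2 (Pearson r = 0.996), Itga3 (r = 0.996) and Wfdc2 (r = 0.995). Their log2 changes were 0.12 ± 0.10, 0.39 ± 0.10 and 0.33 ± 0.10, and none passed the test. Those closest to Junb were Rnase12, Aoc1 and Klk1 (each r = 0.992). Aoc1, the gene of diamine oxidase, rose 3.65-fold and Klk1, a tissue kallikrein gene, 3.47-fold, with adjusted p values of 0.058 and 0.067 without litter 2, and Rnase12 did not pass (0.51 ± 0.11, adjusted p = 0.056). These correlations describe 6 points that share genotype and litter and were picked as the highest among all tested genes.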

How the data were processed

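Total RNA of whole kidney was hybridized to Illumina MouseWG-6 v2.0 arrays, 1 per pool. The authors deposited non-normalized probe intensities with a detection p-value per array, and log2 values that their methods describe as made with lumi and limma; the exact transformation was not given in the sources used here. Array number limits the precision. Of 45281 rows, 8 damaged ones (intensity under 80) were left out. Of the 45273 probes kept, 34877 had 1 gene symbol, 18 several and 10378 none.

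Intensities were background-corrected and quantile-normalized with neqc (limma 3.58.1, R 4.3.3, offset 16, background from the detection p-values). The 16899 probes tested were fitted with lmFit and eBayes, with genotype and litter as terms as in the study's methods. P-values were adjusted by Benjamini-Hochberg over all tested probes, and the brightest of a gene's tested probes stood for the gene, which was called where its adjusted p was under 0.05. Values of untested probes came from a fit of all probes. Litter numbers in the labels pair the pools, whose deviations correlated within litters at 0.21, 0.16 and 0.14. The code was tested on simulated data.

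All probes of the members were described. From each gene list the called genes, at most 4 by smallest p, were named, or the 2 with the smallest p. Other list genes, such as Myc, Dusp1, Zfp36, Srf, Hspa1a, Mrc1, Ltf and the cell type markers beyond 4 a list, were named after their values were seen. For Jun and Junb, the 3 most correlated genes were named. Members and lists were chosen with earlier results of these data known. Promoters came from RefSeq (GRCm38.p6).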

Additional observations from a re-analysis of the deposited data

How the results depend on the processing

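Of the log2 changes of the 6 tested members under 12 alternative settings, 65 kept their direction and side of the threshold, 4 no longer passed, 2 came to pass and 1 reversed. The 65 include values that passed under neither setting. Settings that altered only the filter, the intensity trend, the litter block or the averaging of probes left the log2 change itself the same. Direction could not change under those. Jun passed in 9 of 12 settings, Junb in 11 and Jund in 2, and Fosl2 (0.10 to 0.36) and Egr1 (-0.31 to -0.09) passed in none. Fos reversed to -0.0094 without litter 2 and reached 0.64 at most. The count of members called went from 2 of 6 to 1 of 9 without the filter on dim probes, where Jun had an adjusted p of 0.059. It ranged from 0 to 3 when each litter was left out. The count of all genes called, 552 of 9921, became 265 of 19054 without that filter and 865 of 9921 with an intensity trend in eBayes. It was 343 of 9921 where a B-statistic above 0, which the study used, replaced the adjusted p, and Jun and Junb both passed by that measure. It ranged from 44 to 538 when each litter was left out. Without the litter block, 3 members and 528 genes were called. Median scaling over all probes gave an infinite prior df, and median scaling over the tested probes, chosen after seeing the data, called 2 members and 489 genes. The cause of these changes of count was not tested. Fosb, Atf3 and Ier2 did not reach the bound for detection, and none passed in the fit without the filter.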
